A study of Homo sapiens with 6 samples.

Results

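Monocyte maturation was followed through 10 genes in MV411 cells, 9 of them surface or lysosomal markers of monocytes and macrophages (CD14, CD68, ITGAM, ITGAX, CSF1R, FCGR1A, CD36, CD163 and CD4) and the remaining member, LACC1, an enzyme that works inside macrophages. They were chosen by symbol, and all 10 were found among the 20036 genes of the table. MV411 is an established human leukaemia line of monocytic type, which carries a KMT2A fusion and a FLT3 gene with an internal tandem duplication, and is labelled here as wild type in genotype. The cells were treated for 48 h with corilagin, a plant ellagitannin whose dose the labels do not state, or with DMSO, the solvent control, with 3 libraries in each group. Poly(A) RNA was sequenced, and each gene has a value in FPKM, its fragments scaled to its length and to the library's total. The labels do not say whether the replicates were separate cultures, so p-values measure only how these libraries vary, which could be technical variation.

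Monocytes arise from progenitors that switch on the receptor for CSF1, encoded by CSF1R, and as they mature they display integrins that bind complement fragments and matrix, Fc receptors for antibody, and scavenger receptors for lipids and haemoglobin. ITGAM and ITGAX encode CD11b and CD11c, which reach the surface only when paired with the beta subunit from ITGB2. CD14 hands lipopolysaccharide to TLR4 and LY96, FCGR1A encodes the high-affinity IgG receptor CD64 that signals through FCER1G, and CD68 is a heavily glycosylated protein of macrophage lysosomes. CD4, best known on helper T cells, is also carried by human monocytes.

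After corilagin the cells held more mRNA of LACC1, ITGAX and ITGAM, at 3.65, 1.77 and 2.04 times the DMSO level. These were the 3 members that rose, of 7 with a mean of at least 1 FPKM, the level needed to enter the test. No member fell. The other 4 tested members, CD36, CD4, CSF1R and FCGR1A, did not pass, and CD14, CD163 and CD68 lay below the level needed. The test was limma on log2(FPKM + 1), with p-values adjusted by Benjamini-Hochberg over 9868 genes and a threshold of 0.05. It called 11.9% of all tested genes higher and 13.5% lower, a split that became 16.4% and 10.7% when libraries were scaled to equal sums. The 10 genes were chosen with earlier results known, so the count is a description of them.

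The upstream sequences of called members found in RefSeq's table (GRCh38.p14) are shown because both genes were called higher. Across the DMSO libraries their FPKM did not run together, LACC1 being highest and ITGAM lowest in DMSO replicate 3. After removal of a trend with transcript GC content, described below, only LACC1 still set replicate 3 apart. On the log2 scale LACC1 was then at 2.78, 2.95 and 3.29 in DMSO replicates 1, 2 and 3, and ITGAM at 1.20, 1.17 and 1.21. They are the 250 bases before the start of ITGAM (chr16:31259725-31259974, plus strand) and before the outermost start listed for LACC1 (chr13:43878928-43879177, plus strand), each written 5′ to 3′ with the bases GGAA, or TTCC on the opposite strand, in capitals. GGAA is the core that ETS factors bind, PU.1 of the myeloid lineage among them, and was added to the search after the values were seen.
ITGAM: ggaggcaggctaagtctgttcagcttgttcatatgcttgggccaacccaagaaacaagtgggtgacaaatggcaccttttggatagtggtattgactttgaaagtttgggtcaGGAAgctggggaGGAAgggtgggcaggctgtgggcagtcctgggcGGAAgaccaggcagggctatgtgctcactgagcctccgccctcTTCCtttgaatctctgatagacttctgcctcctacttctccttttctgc
LACC1: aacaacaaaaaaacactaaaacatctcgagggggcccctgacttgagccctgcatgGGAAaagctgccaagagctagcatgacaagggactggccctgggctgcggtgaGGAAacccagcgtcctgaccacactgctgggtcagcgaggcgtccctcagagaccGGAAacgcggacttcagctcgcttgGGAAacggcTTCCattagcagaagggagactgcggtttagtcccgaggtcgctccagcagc
The core occurs 4 times in the ITGAM window and 5 times in the LACC1 window. It is common, being present in 92.74% of the 35116 promoter windows of the same length, with a median of 3 matches. Neither window holds the longer ETS word GGAAGT, the C/EBP word TTGCNNAA, the AP-1 word TGANTCA or the E-box CACGTG on either strand, which occur in 19.5%, 9.05%, 6.57% and 6.34% of all windows. These counts describe letters in 1 window per gene and say nothing about which factors act there.

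The libraries differed among themselves in a way that bears on every member. DMSO replicates 1 and 2 carried fewer fragments of AT-rich transcripts and more of GC-rich transcripts than the other 4 libraries, DMSO replicate 3 included. In the eighth of tested genes with the lowest transcript GC content, the median deviation from the gene mean was between 0.21 and 0.26 log2 units in the corilagin libraries, against -0.50, -0.43 and 0.24 in DMSO replicates 1, 2 and 3. In the highest eighth it was between -0.15 and -0.09 in the corilagin libraries, against 0.23, 0.22 and -0.10 in the DMSO replicates. LACC1 and CD36 have AT-rich transcripts (38.9% and 40.4% GC), FCGR1A lies near the middle, and ITGAM, CD4, ITGAX and CSF1R are GC-rich (54.2 to 57.3%). Each member is therefore given also with the GC trend of each library removed by a spline, which takes out any true difference that follows GC content too, and against DMSO replicate 3 alone, where the single DMSO library is assumed to vary like the others.

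**Figure D1:**
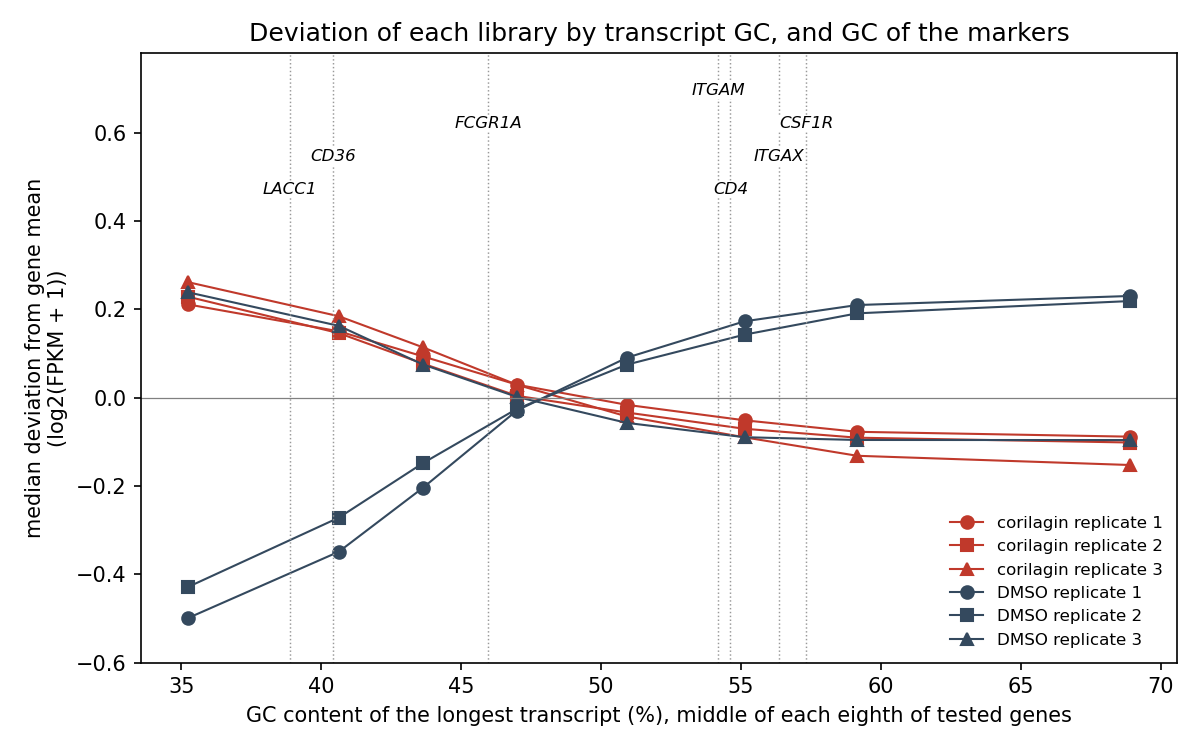
Median deviation of each library from the gene mean on the log2(FPKM + 1) scale (vertical axis) in eighths of the tested genes by transcript GC content in percent (horizontal axis), with dotted lines at the GC content of the 7 tested members. DMSO replicates 1 and 2 slope upwards from -0.50 and -0.43 to 0.23 and 0.22, whereas DMSO replicate 3 runs with the 3 corilagin libraries.

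LACC1, a macrophage enzyme of purine and amino acid metabolism linked to inflammatory disease (ENSG00000179630, GRCh38 chromosome 13, 43879284 to 43893932, plus strand), was at 23.0, 23.1 and 24.3 FPKM in corilagin replicates 1, 2 and 3, against 4.03, 4.99 and 10.3 FPKM in the DMSO replicates. All corilagin libraries lay above all DMSO libraries, and DMSO replicate 3 was the highest of its group. The values rest on 1989 to 2229 fragments per corilagin library and on 355 to 819 per DMSO library. The log2 difference was 1.81 (SE 0.274, limma adjusted p = 0.00784), and without corilagin replicate 3 the adjusted p was 0.0509. With the GC trend removed the difference was 1.40 (adjusted p = 0.000101), and against DMSO replicate 3 alone it was 1.12, a 2.28-fold difference. LACC1 varied more among the DMSO libraries (SD 3.37 FPKM) than among the corilagin libraries (SD 0.694 FPKM). Without DMSO replicate 3 the fold was 5.21, so the size of the rise, but not its direction, depended on that library.

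LACC1 shares exons with a gene on the same strand, whose reads strand information would not separate, and with a gene on the opposite strand. For the opposite strand it matters that the protocol does not state that strand was kept. Of its 4550 exonic bases in GENCODE release 29, 646 are shared with AL512506.3, annotated as protein-coding on the same strand, and 97 with CCDC122, a coiled-coil gene that runs the opposite way from the same region. AL512506.3 (ENSG00000281883) ranged over 0.232 to 0.371 FPKM after corilagin, against 0.0568 to 0.126 FPKM in DMSO. CCDC122 was at 0.657, 0.557 and 0.565 FPKM in the corilagin replicates, against 0.272, 0.230 and 0.571 FPKM in the DMSO replicates. DMSO replicate 3 thus lay within the range of the corilagin libraries for CCDC122 and well below it for LACC1. CCDC122 lay below the 1 FPKM needed for the test, and without the filter it did not pass (log2 difference 0.24, limma adjusted p = 0.140). A ratio to it thus rests on a low denominator, and how often such ratios separate was not tested. The ratio of LACC1 to CCDC122 was 39.8 ± 4.24 after corilagin and 18.2 ± 3.44 in DMSO (SD, n = 3 each), with no overlap between the groups. The exact 2-sided permutation test gave p = 0.1, the smallest value that 3 against 3 libraries allow.

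ITGAX, the CD11c alpha subunit of complement receptor 4 (ENSG00000140678, chromosome 16, 31355134 to 31382997, plus strand), was at 9.02, 8.85 and 8.45 FPKM in corilagin replicates 1, 2 and 3, against 5.05, 4.66 and 5.13 FPKM in the DMSO replicates. The groups did not overlap, and DMSO replicate 3 lay close to its fellow controls. The log2 difference was 0.72 (SE 0.0800, limma adjusted p = 0.00320). It was 0.87 with the GC trend removed (adjusted p = 0.000281) and 0.67 against DMSO replicate 3 alone.

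ITGAM, the CD11b alpha subunit of complement receptor 3 (ENSG00000169896, chromosome 16, 31259967 to 31332892, plus strand), lies beside ITGAX on the same strand. It was at 2.78, 2.88 and 2.86 FPKM in corilagin replicates 1, 2 and 3, against 1.54, 1.45 and 1.18 FPKM in the DMSO replicates. The corilagin libraries lay close together and above every control, and DMSO replicate 3 was here the lowest library. The log2 difference was 0.69 (SE 0.0840, limma adjusted p = 0.00404), 0.81 with the GC trend removed (adjusted p = 6.21e-05) and 0.82 against DMSO replicate 3 alone. On the log2(FPKM + 1) scale a difference near 1 FPKM is understated. The calls of both ITGAX and ITGAM held whichever single library was left out, with adjusted p of at most 0.0329 and 0.0339. ITGAD, their close paralog in the same cluster, was at 0 in 4 libraries and at 0.0128 FPKM or less in the others.

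**Figure D2:**
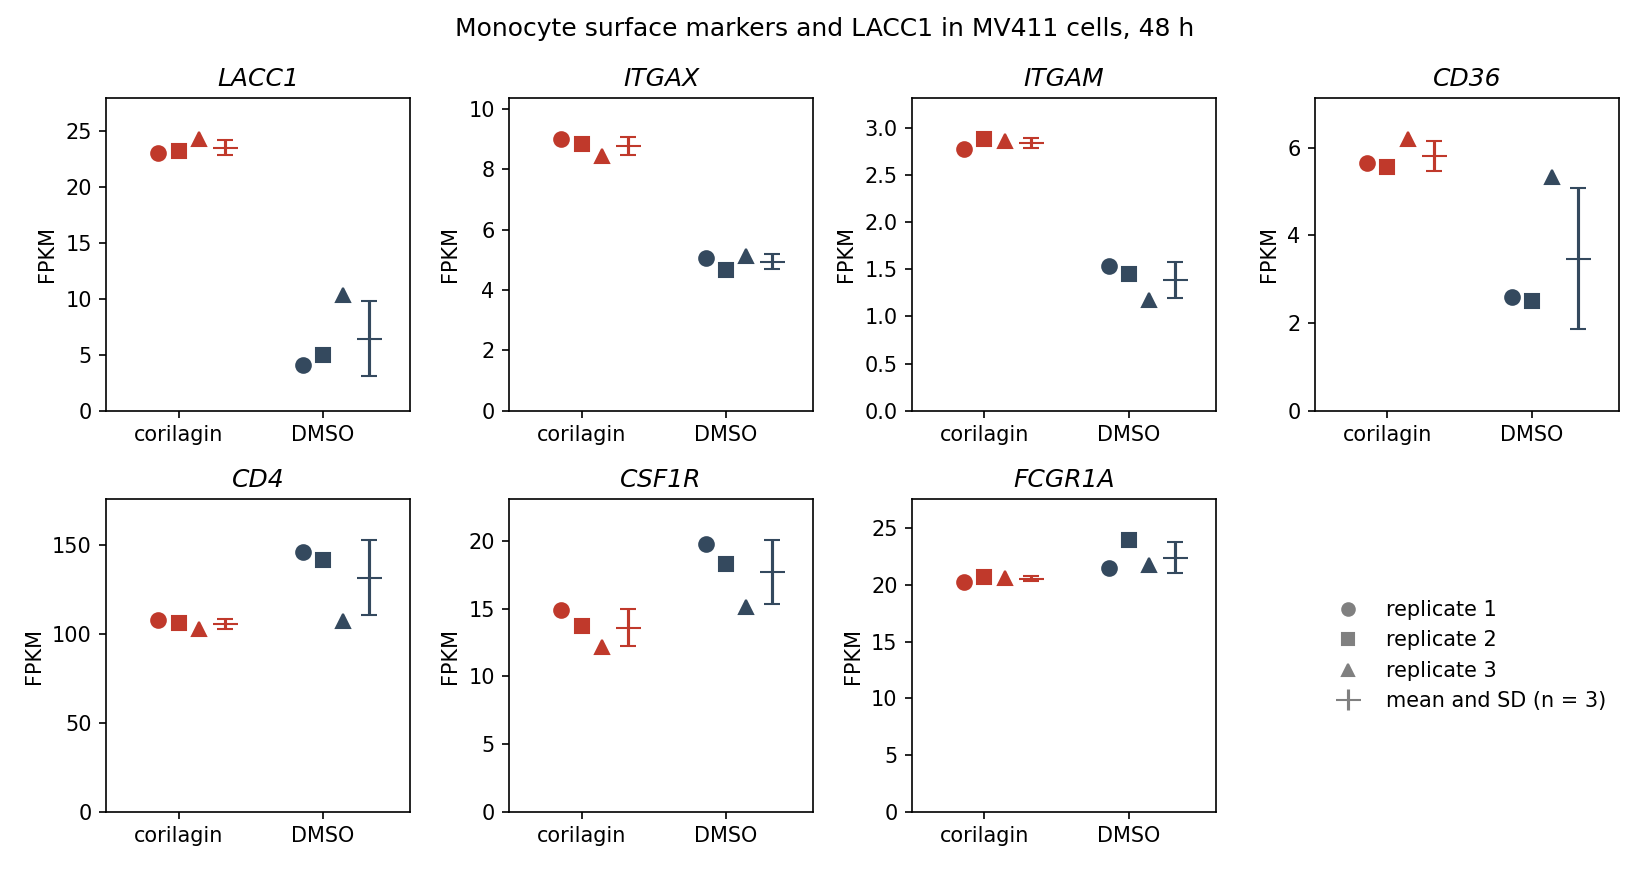
FPKM (vertical axes, each from 0) of the 7 tested members in each library, corilagin left and DMSO right, with symbols for the replicate number and the mean and SD (n = 3) beside the points. LACC1, ITGAX and ITGAM separate corilagin from every DMSO library, whereas for CD4 DMSO replicate 3, at 107 FPKM, lies among the corilagin libraries, and for CD36, at 5.33 FPKM, just below them.

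ITGB2, the shared beta subunit, was far more abundant than both alpha subunits, at 35.1, 36.1 and 34.6 FPKM after corilagin, against 32.8, 31.8 and 24.8 FPKM in DMSO. Its log2 difference of 0.24 did not pass (limma adjusted p = 0.139), but it passed with the GC trend removed (0.43, adjusted p = 0.000308). Against DMSO replicate 3 alone it was 0.49. Per unit of ITGB2 mRNA, ITGAM was at 0.0807 ± 0.00190 after corilagin and 0.0467 ± 0.000876 in DMSO (SD, n = 3 each). The same ratio for ITGAX was 0.249 ± 0.00712 after corilagin and 0.169 ± 0.0329 in DMSO. ITGAL, the lymphocyte integrin alpha subunit that competes for the same partner, had a ratio of 3.51 ± 0.114 after corilagin and 4.05 ± 0.0389 in DMSO. None of the 3 ratios overlapped between groups, ITGAM and ITGAX being higher and ITGAL lower after corilagin (exact 2-sided permutation p = 0.1 for each, the smallest possible). How often ratios of other gene pairs separate in this way was not tested. A ratio shows unequal change between a pair of mRNAs and not which of them changed.

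**Figure D3:**
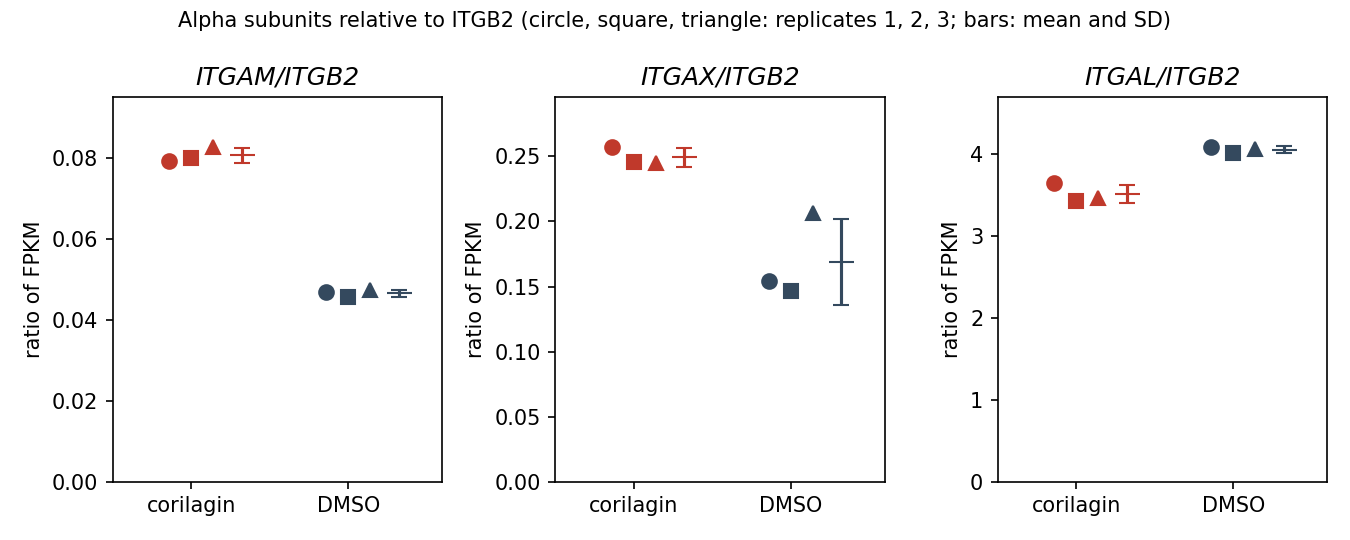
Ratio of FPKM of ITGAM, ITGAX and ITGAL to that of ITGB2 (vertical axes, each from 0) in every library, corilagin left and DMSO right, with mean and SD (n = 3). The ITGAM ratio is tight at 0.0807 after corilagin and 0.0467 in DMSO, while for ITGAX DMSO replicate 3, at 0.207, lies above the other DMSO libraries.

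CD36, a scavenger receptor for oxidised lipids and fatty acids (ENSG00000135218, chromosome 7), was at 5.66, 5.55 and 6.20 FPKM in corilagin replicates 1, 2 and 3, against 2.59, 2.50 and 5.33 FPKM in the DMSO replicates. DMSO replicate 3 lay almost at the corilagin level, and the AT-rich transcript falls in the class where the first 2 DMSO libraries were low. The log2 difference of 0.66 did not pass (SE 0.223, limma adjusted p = 0.0644). It was 0.94 without DMSO replicate 3 (adjusted p = 1.60e-07), 0.32 with the GC trend removed (adjusted p = 0.0278) and 0.10 against DMSO replicate 3 alone. Which of these reflects treatment was not tested.

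CD4 (ENSG00000010610, chromosome 12) was the most abundant member in both groups, at 108, 106 and 102 FPKM in the corilagin replicates, against 146, 141 and 107 FPKM in the DMSO replicates. DMSO replicate 3 again stood with the corilagin libraries. Its log2 difference of -0.30 did not pass (limma adjusted p = 0.101). The difference was -0.44 without DMSO replicate 3 (adjusted p = 8.90e-07), -0.18 with the GC trend removed (adjusted p = 0.0491) and -0.02 against DMSO replicate 3 alone. LCK, the kinase that binds the CD4 tail in T cells, was listed at 0 in every library, and the CD4 ligand IL16 averaged 2.09 ± 0.0603 FPKM after corilagin, against 2.01 ± 0.337 FPKM in DMSO (SD, n = 3 each; limma adjusted p = 0.733).

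CSF1R, the receptor tyrosine kinase for CSF1 and IL34 (ENSG00000182578, chromosome 5), was at 14.9, 13.7 and 12.1 FPKM in the corilagin replicates, against 19.7, 18.2 and 15.1 FPKM in the DMSO replicates. The groups did not overlap, but the highest corilagin and the lowest DMSO library were neighbours. The log2 difference of -0.35 did not pass (limma adjusted p = 0.0679). It was -0.19 with the GC trend removed (adjusted p = 0.0463) and -0.15 against DMSO replicate 3 alone. Of its ligands, CSF1 had 22 to 34 fragments per library after corilagin, against 7 to 16 in DMSO, and was 2.11-fold higher from below 1 FPKM (log2 difference 0.29 in limma without the filter, adjusted p = 0.0408). IL34 had at most 2 fragments in any library.

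FCGR1A (ENSG00000150337, chromosome 1) had the smallest relative difference of the 7, at 20.3, 20.7 and 20.6 FPKM in the corilagin replicates, against 21.5, 24.0 and 21.7 FPKM in the DMSO replicates. The corilagin values all lay just below the DMSO values. Its log2 difference of -0.12 did not pass (SE 0.0777, limma adjusted p = 0.258). It was -0.19 with the GC trend removed (adjusted p = 0.0310) and -0.08 against DMSO replicate 3 alone. Its signalling partner FCER1G rose, at 54.1, 59.7 and 58.3 FPKM after corilagin, against 42.8, 41.4 and 42.0 FPKM in DMSO (log2 difference 0.44, limma adjusted p = 0.0106), and the same 0.44 was found with the GC trend removed and against DMSO replicate 3 alone. The ratio of FCGR1A to FCER1G was accordingly 0.358 ± 0.0145 after corilagin and 0.533 ± 0.0406 in DMSO (SD, n = 3 each; exact 2-sided permutation p = 0.1, the smallest possible). FCGR1A has near-identical copies on chromosome 1, not analysed here, that can take or lend reads, and 24.6% of its exonic bases are shared with genes on the opposite strand, so its level is uncertain.

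Groups that do not overlap were common in these data. Among the 7 tested members this held for all but CD4, with LACC1, ITGAX, ITGAM and CD36 higher and CSF1R and FCGR1A lower after corilagin. Over all tested genes, 25% had every corilagin library above every DMSO library and 23.3% the opposite. With the GC trend removed, where 21.8% of genes were called higher and 23.2% lower, 4 members were higher and 3 lower. Without DMSO replicate 3, where 40.8% and 36.5% of genes were called, the counts were also 4 and 3. Against DMSO replicate 3 alone, where 19.4% and 18.6% were called, LACC1, ITGAX and ITGAM were higher and no member was lower.

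The same 3 members were the ones called higher with pseudocounts of 0.1 and 0.5, where 11.3% and 11.6% of all genes were called higher and 13.3% and 13.4% lower. They were so with no filter (5.87% higher and 6.44% lower), under quantile normalization (10.4% and 15.2%), under size factors from median ratios (9.7% and 15.4%) and with limma-voom on the recovered fragments (12.5% and 13.5%). A filter at a mean of 5 FPKM leaves ITGAM and CD36 out and called 10.9% of genes higher and 15.4% lower. Without corilagin replicate 1, 2 or 3 the test called far fewer genes, 1.33%, 1.33% and 1.53% higher and 1.93%, 1.78% and 2.06% lower, and without DMSO replicate 1 or 2 it called 3.74% and 2.26% higher and 4.89% and 3.02% lower. ITGAX and ITGAM were among the genes called higher in each of these 5 fits, and LACC1 in 4 of them. With transcript length removed as well as GC content, 21.4% of genes were called higher and 23.5% lower, with the same member counts as for GC alone. With the replicate number as a block, 15.7% of genes were called higher and 13.5% lower, and with the GC trend removed as well 21.8% and 22.7%.

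**Figure D4:**
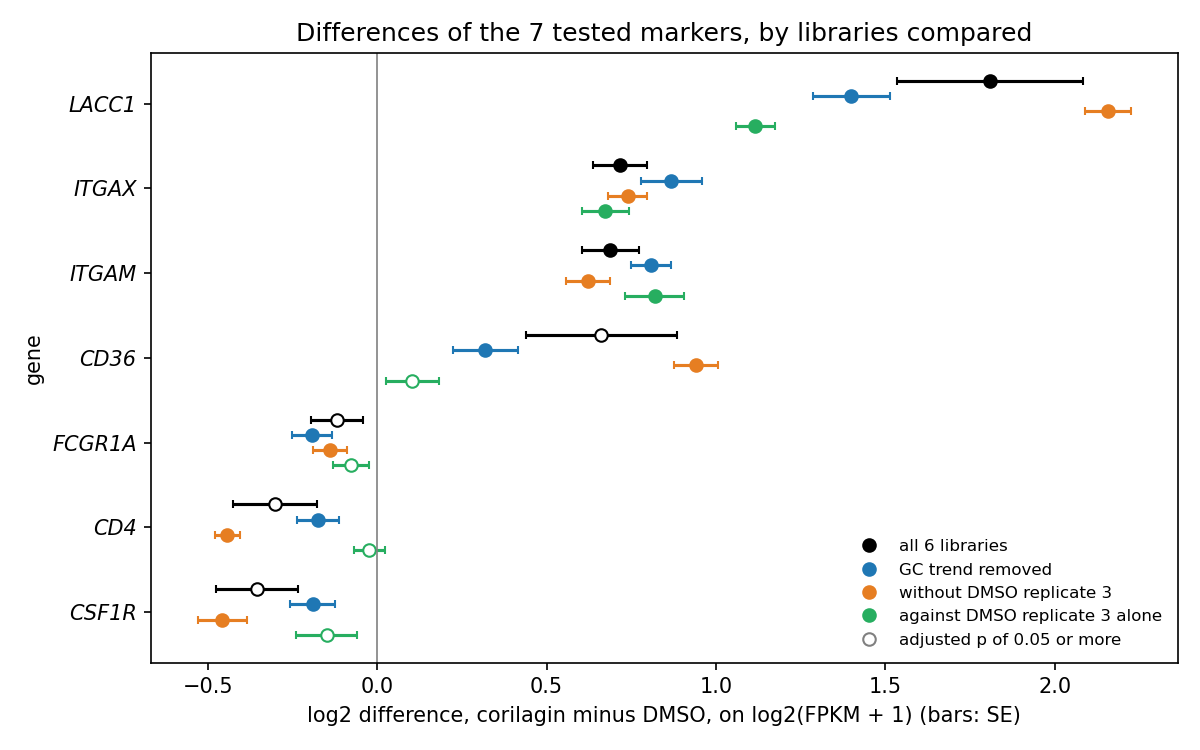
Log2 difference of corilagin minus DMSO on the log2(FPKM + 1) scale (horizontal axis, bars are SE) for the 7 tested members, with all 6 libraries, with the GC trend removed, without DMSO replicate 3 and against DMSO replicate 3 alone; filled points have an adjusted p under 0.05. LACC1, ITGAX and ITGAM are filled in all 4, between 0.62 and 2.16, while CD36 ranges from 0.10 to 0.94 and CD4 from -0.44 to -0.02.

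CD14, CD163 and CD68 were listed at or near 0 in both groups. CD14 (ENSG00000170458, chromosome 5) had 8, 3 and 3 fragments in the corilagin replicates, against 11, 6 and 7 in the DMSO replicates, which is 0.0931 to 0.224 FPKM and 0.182 to 0.340 FPKM. The groups overlapped, and without the filter its log2 difference was -0.14 (limma adjusted p = 0.177). CD163, the scavenger receptor for haptoglobin and haemoglobin, had at most 3 fragments in any library, too few for a comparison. HMOX1, which degrades the haem so taken up, averaged 4.31 ± 0.230 FPKM after corilagin, against 3.58 ± 0.695 FPKM in DMSO (SD, n = 3 each). Its log2 difference of 0.22 did not pass (limma adjusted p = 0.196). With the GC trend removed HMOX1 passed (0.40, limma adjusted p = 0.00188), and against DMSO replicate 3 alone its difference was 0.49. CD68 was listed at 0 in 5 libraries and at 0.0691 FPKM in DMSO replicate 2. CD68 lies in an unusual place: 85.8% of its exonic bases are also exons of other genes in GENCODE release 29, mainly of the processed transcript AC016876.2 on the same strand. Among protein-coding genes with 75 to under 100% of their exonic bases so shared, 46.3% were listed at 0 in all libraries, and among those wholly shared 94.4%, against 24.2% of genes with none. The part of this overlap in the value of CD68 was not tested. CD14 shares no exonic bases with another gene.

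In order of FPKM, the members after corilagin were CD4, LACC1, FCGR1A, CSF1R, ITGAX, CD36 and ITGAM, with no overlap between neighbours. In DMSO the order was CD4, FCGR1A, CSF1R, LACC1, ITGAX, CD36 and ITGAM, where LACC1 overlapped ITGAX and ITGAX overlapped CD36. LACC1 thus stood at rank 2 of the members after corilagin and at rank 4 in DMSO, and the others kept their order among themselves. This profile, with CD4, FCGR1A and CSF1R at moderate to high levels and almost no CD14 or CD163 in either group and with ITGAX, CD36 and ITGAM in between, holds some monocyte markers well above 0 and others hardly at all. Of 12 defining markers of myeloid leukaemia cells, 11 were tested, of which 2 rose, 3 fell and 6 did not pass (median log2 difference -0.07). The same test called 11.9% of all genes higher and 13.5% lower. CD33 and SPI1 averaged 22.5 and 111 FPKM after corilagin, against 23.7 and 145 FPKM in DMSO, and did not pass (limma adjusted p = 0.491 and 0.0566). Lysozyme, LYZ, was at 42.9, 44.7 and 40.9 FPKM after corilagin, against 62.2, 70.7 and 72.5 FPKM in DMSO, and fell by 0.66 on the log2 scale (limma adjusted p = 0.00502). Its difference was -0.95 with the GC trend removed and -0.75 against DMSO replicate 3 alone. MPO, the myeloperoxidase of granulocyte and monocyte precursors, averaged 0.471 ± 0.209 FPKM after corilagin and 1.58 ± 0.340 FPKM in DMSO (SD, n = 3 each; log2 difference -0.81, limma adjusted p = 0.00967). Its corilagin mean lay below 1 FPKM, so MPO entered the test only through its level in DMSO. The remaining calls were a fall in CSF3R and rises in FLT3 and the homeobox gene MEIS1 (log2 difference 0.37, limma adjusted p = 0.0335), named with LYZ and MPO after their values were seen. With no filter, 0 of the 12 markers rose and 4 fell, where 5.87% and 6.44% of all genes were called. With the GC trend removed 3 of 11 rose and 4 fell, where 21.8% and 23.2% were called. CD38, the marker below the filter, is described further below. Of 8 T cell genes matched, none reached a mean of 1 FPKM, and their summed FPKM was 0.207 to 0.337 after corilagin and 0.250 to 0.360 in DMSO. In such bulk samples, more cells of a type and more RNA per cell cannot be told apart.

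Other genes around these markers moved in both directions. Over all tested genes 11.9% were called higher and 13.5% lower, the shares to set beside the counts of each list. In the list of the members' partners and ligands, 3 of 11 tested genes rose, none fell and 8 did not pass, with a median log2 difference of 0.22, against 0.03 over all tested genes. The 3 were LY96, TLR2 and FCER1G. LY96, the lipopolysaccharide-binding partner of TLR4, was at 11.6, 11.3 and 14.4 FPKM after corilagin, against 6.10, 7.67 and 6.84 FPKM in DMSO (log2 difference 0.77, limma adjusted p = 0.00863). LY96 did not pass after removal of the GC trend (0.20, adjusted p = 0.494), and its difference was 0.77 against DMSO replicate 3 alone. TLR2, a receptor for bacterial lipoproteins, was read at 36.1, 37.6 and 40.7 FPKM after corilagin, against 20.2, 20.7 and 33.7 FPKM in DMSO (log2 difference 0.64, limma adjusted p = 0.0482). TLR2 passed after removal of the GC trend (0.24, adjusted p = 0.00821), and its difference was 0.17 against DMSO replicate 3 alone. TLR4 itself stayed close to 1 FPKM or below, with 0.952 ± 0.0766 FPKM after corilagin, against 0.451 ± 0.108 FPKM in DMSO (SD, n = 3 each; limma without the filter, adjusted p = 0.0166).

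Among 60 other monocyte and macrophage surface receptors, 35 were tested, of which 6 rose, 3 fell and 26 did not pass (median log2 difference 0.14). With the GC trend removed, 17 were higher and 4 lower, where 21.8% and 23.2% of all tested genes were called. With libraries scaled to equal sums, which raises the median of all genes, 14 were higher and 2 lower, beside 16.4% and 10.7%. The largest rises were in CD101 and CD300A, both inhibitory receptors of the immunoglobulin superfamily. CD101 was at 9.46, 9.73 and 9.98 FPKM after corilagin, against 4.43, 4.11 and 3.31 FPKM in DMSO (log2 difference 1.12, limma adjusted p = 0.00213). CD300A was at 8.76, 8.33 and 8.32 FPKM after corilagin, against 4.24, 3.71 and 3.46 FPKM in DMSO (0.98, limma adjusted p = 0.00198). In both, as in ITGAM, DMSO replicate 3 was the lowest library. The largest falls were in SIRPB2, a signal-regulatory protein, which was at 0.360 of its DMSO level (log2 difference -0.96, limma adjusted p = 0.00216), and in the TAM receptor kinase TYRO3, which was at 0.600 of it (-0.52, limma adjusted p = 0.0136).

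Of 15 tested genes for other integrin subunits and for their activators and ligands, 3 rose, none fell and 12 did not pass (median log2 difference 0.16). After removal of the GC trend 10 were higher, the activator FERMT3 and the ligand ICAM1 among them, beside 21.8% of all tested genes. The adaptor TLN1, which is no integrin, was the 1 gene lower, beside 23.2%. FERMT3, ICAM1 and TLN1 were named after their values were seen. Scaling to equal sums gave 5 rises, where 16.4% of all tested genes were called higher. ITGAV, the alpha subunit of vitronectin receptors, and ITGB1, the beta subunit of fibronectin and collagen receptors, rose 1.88-fold and 1.59-fold (limma adjusted p = 0.0400 and 0.0330). Their corilagin means of 3.88 and 19.0 FPKM lay nearer to DMSO replicate 3, at 3.19 and 15.9 FPKM, than to the other DMSO libraries. With the GC trend removed their log2 differences were 0.28 and 0.30 (limma adjusted p = 0.00648 and 0.00210). Against DMSO replicate 3 alone they were 0.22 and 0.24. The remaining rise, ITGB5, a partner of ITGAV named after its value was seen, was at 9.84, 9.29 and 8.93 FPKM after corilagin, against 6.25, 6.44 and 5.25 FPKM in DMSO (log2 difference 0.57, limma adjusted p = 0.0108).

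Among progenitor and leukaemic blast surface markers, 5 of 11 tested rose and 1 fell (median log2 difference 0.22). With the GC trend removed 4 were higher and 2 lower, where 21.8% and 23.2% of all genes were called. Size factors from median ratios left only 1 higher and 1 lower, where 9.7% and 15.4% were called. With no filter 1 was higher and 2 were lower, where 5.87% and 6.44% were called. IL1RAP, a co-receptor of interleukin 1, and the receptor kinase FLT3 rose 1.52-fold and 1.43-fold (log2 difference 0.60 and 0.53, limma adjusted p = 0.0471 and 0.0273). Against DMSO replicate 3 alone their log2 differences were 0.16 and 0.25. CSF3R, the receptor for granulocyte colony-stimulating factor, was at 0.713 of its DMSO level (limma adjusted p = 0.0151). In the list of macrophage maturation genes, 2 of 14 tested rose and 2 fell (median 0.08). With the GC trend removed 4 were higher and 2 lower, the same counts as with equal sums, where 16.4% and 10.7% of all genes were called. With size factors from median ratios 1 was higher and 2 were lower. NPC1 and LIPA, which handle lysosomal cholesterol, were 1.32-fold and 1.25-fold higher (limma adjusted p = 0.0348 and 0.0230), and LIPA did not pass after removal of the GC trend (adjusted p = 0.497). The fatty acid carrier FABP5 and the lysosomal protease CTSZ were at 0.575 and 0.698 of their DMSO levels (limma adjusted p = 0.00609 and 0.0249).

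These counts depended on the libraries, as did the shares of all tested genes called. Without any 1 corilagin library, or without DMSO replicate 1 or 2, rises numbered 1 or 2 among the partners, 2 or 3 among the receptors, 0 or 1 among the integrin genes, 0 among the blast markers, 0 or 1 among the maturation genes and 0 among the defining markers. Falls in these 5 fits numbered 0 among the partners, integrin genes and blast markers, 1 or 2 among the receptors and the defining markers and 1 among the maturation genes. Over all tested genes these 5 fits called 1.33% to 3.74% higher and 1.78% to 4.89% lower. Without DMSO replicate 3 the same lists, in that order, held 5, 13, 5, 5, 6 and 4 rises and 3, 11, 2, 4, 5 and 5 falls. In that fit 40.8% of all tested genes were called higher and 36.5% lower.

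**Figure D5:**
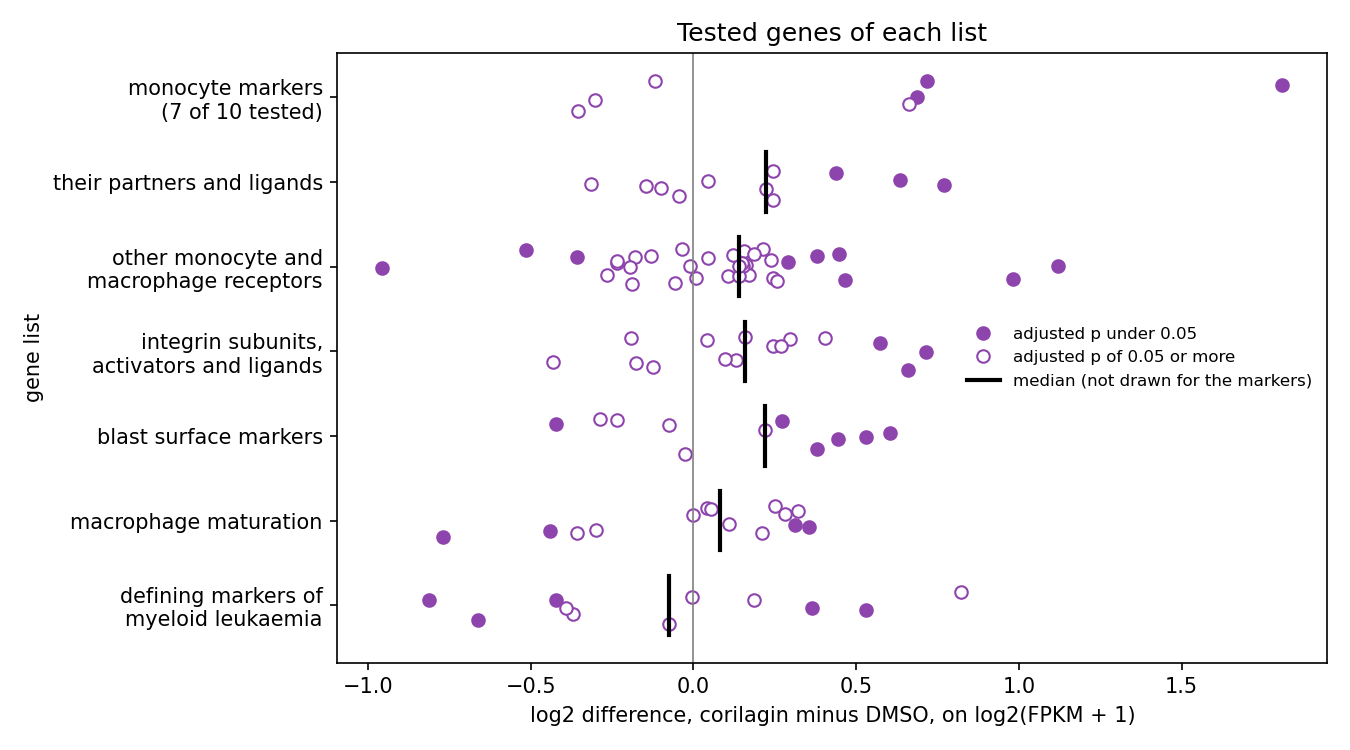
Log2 difference of corilagin minus DMSO on the log2(FPKM + 1) scale (horizontal axis) for each tested gene of 7 lists (vertical axis), filled where the adjusted p is under 0.05, with a bar at the median of each list other than the markers. LACC1, at 1.81, lies farther right than any other point, and the medians of the other lists lie between 0.08 and 0.22, except that of the defining myeloid leukaemia markers, at -0.07, which share CD33, CD38, FLT3 and CSF3R with the blast markers.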

How the data were processed

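RNA-seq libraries of MV411 cells, 3 per group, were compared as corilagin over DMSO. The authors deposited 1 table of FPKM. Per the submitters' processing notes, the tools were HISAT2 2.1.0, HTSeq 0.9.1, fastp 0.22.0 and DESeq 1.38.3 and the genome build was GRCh38; settings and annotation are not given in these notes. FPKM depends on each library's total, so a few abundant genes can shift the rest. The steps between low FPKM values gave whole fragments for all 15921 genes above 0 (tolerance 0.01) and library totals of 17776956 to 21640689. The method accepts only whole multiples, so this is no separate check. No pair of libraries agreed within sampling noise (lowest chi-square 2.40 per gene).

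Symbols came from a table pairing 20011 identifiers. Coordinates, exon overlaps and the GC content of the longest transcript came from GENCODE release 29 (GRCh38), and upstream windows from RefSeq (GRCh38.p14). FPKM as deposited was tested in limma 3.58.1 (R 4.3.3, trend, 2-sided) on log2(FPKM + 1) with the filter at a mean of 1 FPKM. The GC trend was removed with a natural spline of 5 degrees of freedom (9859 genes). The fit was also run on simulated data, on which no result here rests. Members, lists and alternatives were chosen with earlier results of these data known. Named non-members were each member's direct partners and up to 2 rises and 2 falls per list. Markers of B, NK, erythroid, megakaryocyte, neutrophil, mast, dendritic, fibroblast and epithelial cells were also read as levels. Protein sequences were not used here.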

Additional observations from a re-analysis of the deposited data

How the results depend on the processing

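The rises of ITGAX and ITGAM kept their direction and stayed past the threshold under every alternative that tested them, 19 for ITGAX and 18 for ITGAM, which a filter at a mean of 5 FPKM leaves out. LACC1 did so under 18 of 19, missing the threshold only without corilagin replicate 3. Pseudocounts of 0.1 and 0.5, no filter, the stricter filter, 3 other scalings and limma-voom on the recovered fragments called no member lower. Falls numbered 3 with the GC trend removed, 3 with the GC trend and transcript length removed, 3 with the replicate block and the GC trend removed, and 1 (CSF1R) with the replicate block alone, which also called CD36 higher (4 rises, beside 15.7% of all genes). Leaving out 1 library gave 2 to 4 rises and 0 to 3 falls; the 3 falls came without DMSO replicate 3. The replicate numbers were not treated as pairs. Same-numbered libraries correlated in their deviations by 0.28, 0.08 and 0.34, not all above 0.1. Each corilagin library correlated best with the DMSO library of its own number, for replicate 1 only by 0.280 against 0.279. DMSO replicate 2 correlated better with a corilagin library of another number (0.279, against 0.079). Scaling to equal sums moved the median log2 difference of all genes from 0.03 to 0.14, and FCGR1A from -0.12 to -0.003. The cause of the GC trend was not tested. Depth limits CD14 and CD163, with at most 11 fragments per library.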

Other observations

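Markers listed for other cell types were mostly low but not all absent, and their part in the results was not tested. NKG7, a granule protein of cytotoxic lymphocytes, was at 51.3, 47.6 and 45.9 FPKM in the corilagin replicates, against 63.4, 58.4 and 43.7 FPKM in the DMSO replicates. Its list of 6 NK cell genes summed to 47.9 to 53.3 FPKM after corilagin and 46.6 to 65.7 FPKM in DMSO, so NKG7 made up nearly all of it. CXCR2, a chemokine receptor of neutrophils and monocytes, was at 8.09, 7.90 and 9.86 FPKM after corilagin, against 5.24, 5.69 and 5.79 FPKM in DMSO (log2 difference 0.54, limma adjusted p = 0.0145). The defining neutrophil genes CEACAM8 and MMP8 were listed at 0 in all libraries, as were the erythroid globin genes HBB, HBA1 and HBA2 and the mast cell genes TPSAB1 and CPA3. The summed FPKM of the remaining lists was 5.20 to 6.37 after corilagin and 5.62 to 6.78 in DMSO for B cells, 4.60 to 5.70 and 4.53 to 4.82 for megakaryocytes, 6.76 to 8.10 and 6.38 to 8.58 for dendritic cells, and 3.52 to 4.15 and 3.94 to 5.15 for fibroblasts and epithelial cells.

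Some markers below the filter of 1 FPKM differed in limma without that filter, in both directions, and were named after their values were seen. Among those higher, besides CSF1 and TLR4 above, were CLEC5A and STAB1, of the same receptor list as MARCO. Their log2 differences were 0.28 and 0.17 (limma adjusted p = 0.0289 and 0.0439). The integrin gene ITGA1 was higher by 0.10 (limma adjusted p = 0.0379). CD38, an ectoenzyme of progenitors and activated leukocytes, had 19, 16 and 7 fragments in the corilagin replicates, against 127, 109 and 101 in the DMSO replicates (log2 difference -0.75, limma adjusted p = 0.00354). MARCO, a scavenger receptor of macrophages, had 20, 8 and 8 fragments after corilagin, against 42, 48 and 38 in DMSO (log2 difference -0.70, limma adjusted p = 0.00937). In CD38 and MARCO every corilagin library lay below every DMSO library, and DMSO replicate 3 stood with the other controls.

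CD163L1, the neighbour and relative of CD163, was at 4.07, 4.19 and 3.80 FPKM in the corilagin replicates, against 3.44, 3.26 and 3.52 FPKM in the DMSO replicates, whereas CD163 itself had at most 3 fragments in any library.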
